A study of Mus musculus with 14 samples.

Results

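The genes described here encode the respiratory chain and the ATP synthase of mouse mitochondria. They were chosen by symbol from the 39179 genes of the differentiation table, taking the Nduf, Sdh, Uqcr, Cox4 to Cox8 and Atp5 symbols together with the protein-coding genes of the mitochondrial genome, and leaving out entries named as pseudogenes or with Gm symbols. The rule gave 106 genes, 93 nuclear and 13 mitochondrial, and no measured value entered it. By part they are 36 subunits of complex I, 7 complex I assembly factors (Ndufaf genes), 4 subunits of complex II, 8 of complex III, 19 of complex IV (Ndufa4 among them), 16 genes named for the ATP synthase, the 2 related genes Atp5s and Atp5sl, the Ndufa4 paralog Ndufa4l2 and the 13 mitochondrial genes. All 106 gene identifiers were also present in the sorted-cell files. Atp5l2 is annotated as a processed pseudogene in GENCODE M39 although its name does not say so, and it had 1 read in all.

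All groups come from 1 mouse cell line with osteocyte-like features, Ocy454. It carries a temperature-sensitive form of large T antigen, which lets the cells divide at 33 °C. In the differentiation experiment, cells grown at 33 °C were moved to 37 °C and collected at days 1, 7, 10 and 14, with 2 biologic replicates per day. In the sort experiment, cells held for 17 days at 37 °C were stained for CD61 (integrin beta-3, the product of Itgb3), and the live cells with the lowest and highest 10% of CD61-PE signal were collected as CD61 low and CD61 high, with 3 replicates each. No other treatment was given to any group.

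The respiratory chain passes electrons from NADH (complex I) and succinate (complex II) through ubiquinone, complex III and cytochrome c to oxygen at complex IV, and the proton gradient this builds drives the ATP synthase. Most subunits are encoded in the nucleus and imported. A small set of core subunits is transcribed inside the organelle as long polycistronic RNAs that are cut into separate messages. Several complex IV subunits exist as pairs, in which one form is widespread and the other is known from muscle, heart, lung or germ cells. Ndufa4 is a subunit of complex IV despite its name, and Ndufa4l2 is a hypoxia-inducible relative of it.

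Libraries of the differentiation experiment held 27518605 to 34311238 reads on genes, and those of the sort held 18815602 to 19220064 estimated counts. Of 8 markers of osteocyte-like cells, 5 rose and Pdpn fell at day 14 (limma) and in CD61 high cells (edgeR), while Mepe and Fgf23, markers of late osteocytes, were at or near 0 throughout. Itgb3, whose product was sorted on, averaged 5.65 TMM-normalized CPM in the CD61 low group and 111 in the other. Of 5 macrophage markers, Adgre1 was at 0 and Ptprc, Csf1r and Lyz2 had group means of at most 0.633 CPM. Cd68 went from 1.66 to 3.34 CPM at day 14 (Log2FC 0.71, called by limma), and was at 14.2 in CD61 low and 8.07 TMM-normalized CPM in CD61 high cells (-0.81, called by edgeR). The 3 endothelial and 3 adipocyte markers had group means of at most 0.208 CPM. Of 3 muscle markers, Actn3 had group means of 0.575 to 1.47 CPM, and Myh1 and Ckm at most 0.0972 CPM. The part of other cell types in the results was not tested. In bulk RNA, fewer cells of a kind and less RNA per cell cannot be told apart.

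Levels can be compared between genes only per transcript length, so the length-corrected TPM values of the sorted cells were used for this. The mitochondrial messages stood highest, with a median of 5496 TPM per gene over the 6 libraries. They ran from 19320 TPM for mt-Co1, the catalytic core of complex IV, down to 32.4 TPM for mt-Nd6, which lies on the opposite strand from the others. Among nuclear genes the median was 272 TPM for the ATP synthase, 200.3 TPM for complex III, 163 TPM for complex IV, 117 TPM for complex I, 89.0 TPM for complex II and 15.9 TPM for the complex I assembly factors. Within each part the extremes were Ndufa3 (343 TPM) and Ndufs1 (36.0 TPM) in complex I, Sdhc (227 TPM) and Sdha (46.4 TPM) in complex II, and Uqcr10 (294 TPM) and Uqcrc2 (50.7 TPM) in complex III. In complex IV Cox6a1 was highest (1273 TPM), and Cox8c, a testis form, was at 0. Atp5b, the catalytic beta subunit, led the ATP synthase at 1146 TPM. Ndufaf3 (19.3 TPM) and Ndufaf5 (9.40 TPM) bounded the assembly factors.

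To ask how the chain changed as cells matured, day 14 was compared with day 1. Of the 106 genes, 95 passed the filter on low values (a CPM above 1 in at least 1 library). At an adjusted p below 0.01 (limma on log2(CPM + 1), adjusted over all 12725 genes tested), 26 rose and 41 fell. Among all genes tested 32.6% rose and 36.0% fell, so the share of members that rose (27.4%) was below the background and the share that fell (43.2%) above it. Changes were small, with a median Log2FC of -0.11 for the members against -0.03 for all genes. With the added requirement of a Log2FC beyond 1, 5 members rose and 1 fell, where 7.51% and 5.9% of all genes did. The 5 were Ndufa4l2, Cox8b, Cox7a1, Ndufv3 and Cox4i2, and the gene that fell was Ndufa4. Cox8b, Cox7a1 and Cox4i2 were below 1 CPM at day 1, so that they entered the test only through later days.

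Of the earlier days, day 7 had a more even balance, and the counts over all members at day 10 were close to those at day 14. The mitochondrial genes went otherwise, with 6 higher and 0 lower at day 10 and 3 and 3 at day 14. Differences between days were not tested. At day 7, 23 members rose (24.5% of all genes did) and 26 fell (32.0%). These counts were the least stable of the time course, with 15 higher and 17 lower when day 1 replicate 2 was left out and 15 lower without day 7 replicate 1. Scaling by TMM moved the balance at day 7 to 27 higher and 18 lower. At day 10, 21 rose (33.1% of all genes) and 42 fell (30.3%). All 3 comparisons share the day 1 libraries.

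In CD61 high against CD61 low cells, 100 members were tested (at least 5 normalized counts in all 6 libraries) and 15 were higher and 6 lower (edgeR quasi-likelihood test, adjusted p below 0.01 over 12077 genes). Over all genes 19.4% were higher and 16.0% lower, so both shares of the members, 15.0% and 6.0%, lay below the background. Beyond a Log2FC of 1, 2 members were higher, Ndufa4l2 and Cox8b, and 0 were lower (0 also at an unadjusted p below 0.05 and by DESeq2), against 4.84% and 4.37% of all genes. These counts turned on the scaling of the libraries. TMM factors were 1.10 to 1.13 in CD61 low and 0.90 to 0.91 in CD61 high libraries, and scaling by library size alone moved the median Log2FC of all genes from 0.00 to -0.29. It gave 4 members higher and 28 lower, and 10 of the 21 calls remained: Ndufa4l2, Cox8b, Cox7a2l and Ndufv3 higher, and Ndufaf4, Ndufa4, Sdha, Ndufa12, Uqcrb and Atp5b lower. Single libraries mattered too, with 5 higher and 3 lower without CD61 low replicate 2, 9 higher without CD61 high replicate 2, 6 higher without CD61 high replicate 3 and 10 lower without CD61 low replicate 3. The study's methods state that 3 independently collected groups of cells were each sorted, without saying which libraries share a group. With the replicate number as a block, 10 were higher and 5 lower, and Atp5b, Ndufb2, Ndufb5, Ndufb10, mt-Co1 and mt-Nd5 lost their calls (edgeR, adjusted p 0.0116 to 0.0285).

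**Figure D1:**
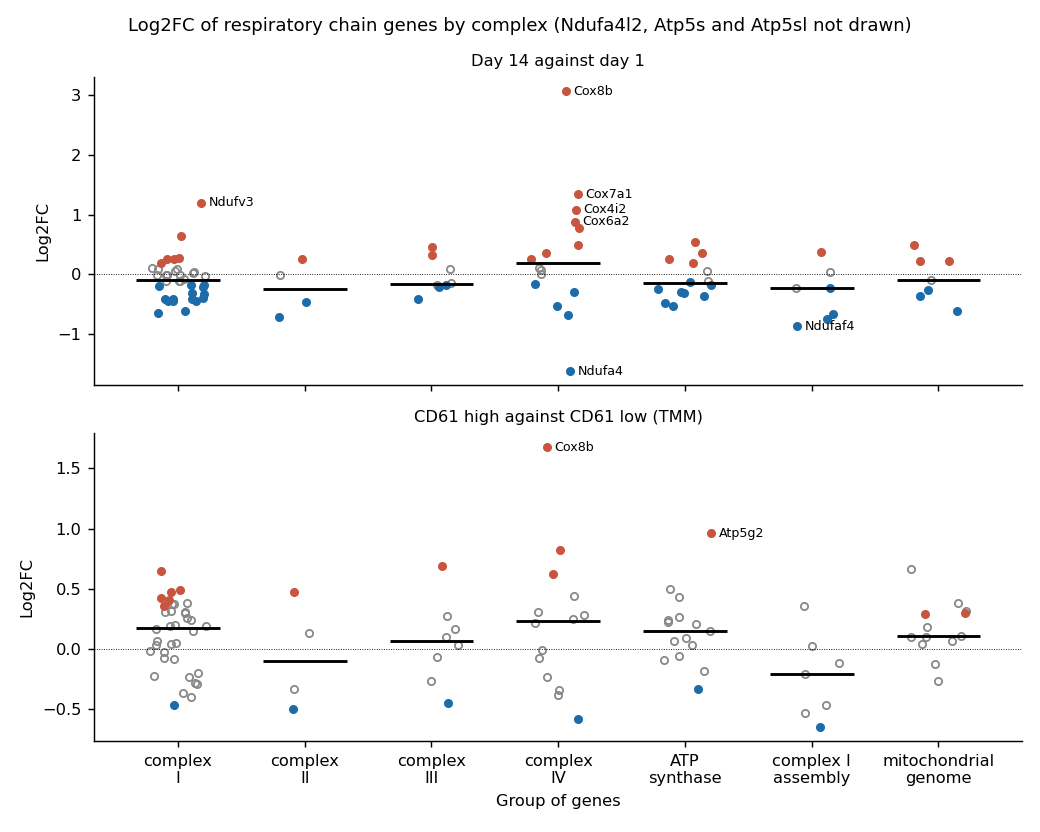
Log2FC of each tested gene (points) by complex for day 14 against day 1 (upper) and CD61 high against CD61 low with TMM scaling (lower). Filled points passed an adjusted p of 0.01, red higher and blue lower, open points did not, and bars are medians. Complex IV has the widest range, from Ndufa4 at -1.63 to Cox8b at 3.07 at day 14, and the assembly factors have the lowest median in the sort, -0.21.

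By complex, the day 14 medians were -0.10 for complex I (6 of 36 rose, 15 fell), -0.24 for complex II (1 of 4 rose, 2 fell), -0.17 for complex III (2 of 8 rose, 3 fell), 0.18 for complex IV (8 of 16 tested rose, 5 fell) and -0.16 for the ATP synthase (4 of 14 tested rose, 8 fell). Over all genes 32.6% rose and 36.0% fell, and several of these counts, such as those of complex III, lie near those shares. In the sort the medians were 0.18, -0.10, 0.07, 0.23 and 0.15 in the same order under TMM. By library size alone the median over all members was -0.20, where TMM gave 0.10. Summed TPM, which is not TMM-scaled, was on average lower in CD61 high than in CD61 low cells for each complex. It was 4754 against 5146 for complex I, 429 against 474 for complex II and 1361 against 1657 for complex III. Complex IV stood at 5284 against 5360 and the ATP synthase at 4233 against 5176. The differences between complexes were not tested. For complex IV, 3 of the 8 that rose (Cox8b, Cox7a1 and Cox4i2) could enter only through the later days. Without them, a choice made after seeing the data, 5 of 13 rose, 5 fell and the median was 0.06.

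The 2 experiments share no library. Of the 21 members called in the sort, 16 were also called at day 14 (76.2% of the sort calls and 23.9% of the 67 day 14 calls). The 16 had the same direction in both, 11 higher and 5 lower. Over all genes tested in both experiments, 81.9% of the 4162 sort calls were also called at day 14, and 85.6% of those had the same direction. On that footing the members stood at 16 of 20 sort calls, so their overlap was near that of all genes. Those higher in both were Ndufa4l2, Cox8b, Ndufv3, Cox7a2l, mt-Co1, Uqcrh, Cox8a, Sdhc, Ndufb11, mt-Nd5 and Ndufb5, and those lower in both were Ndufa4, Ndufaf4, Sdha, Atp5b and Ndufa12. By library size alone mt-Co1 and mt-Nd5 turned to -0.00 and -0.01 in the sort, and Ndufb5 (0.05, adjusted p = 0.603, edgeR) and Cox8a (0.32, adjusted p = 0.0534) were not called. Uqcrh (adjusted p = 0.0382), Sdhc (0.14) and Ndufb11 (0.158) were not called either, so that 4 of the 11 higher in both kept their sort call under that scaling. Ndufb5 was also lost in 5 of the 6 fits that left out a library and with the replicate block (adjusted p = 0.0174). Cox8a was lost without CD61 low replicate 2 (0.0132) or CD61 high replicate 3 (0.0154).

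The most marked fall and rise at day 14 were those of Ndufa4 and its relative Ndufa4l2. The rise was the larger, since the summed CPM of the pair went from 171 at day 1 to 511 at day 14. In the sort the sum was 243 TMM-normalized CPM in CD61 low and 717 in CD61 high cells. Whether one RNA takes the place of the other was not tested. Ndufa4 (chr6:11897630-11907496, minus strand, GRCm39) stood at 169 and 166 CPM at day 1, 70.5 and 71.6 CPM at day 7, 53.4 and 49.3 CPM at day 10 and 53.0 and 53.7 CPM at day 14. Day 1 lay far above the later days and the last pair of days overlapped. The fall was 3.14-fold by day 14, with a Log2FC of -1.63 ± 0.05 (SE, adjusted p = 3.48e-21, limma).

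Ndufa4l2 (chr10:127350818-127353038, plus strand) moved the other way, from 4.34 and 3.61 CPM at day 1 to 316 and 322 CPM at day 7, 215 and 199 CPM at day 10 and 440.5 and 475 CPM at day 14. Its rise was 115-fold by day 14 in mean CPM, and 6.53 ± 0.05 (SE) on the log2(CPM + 1) scale, which understates low genes (adjusted p = 1.14e-32, limma). The path was not steady, since day 10 lay below day 7 in both replicates. Within a library the ratio of Ndufa4l2 to Ndufa4 needs no scaling between libraries. Day 1 gave 0.0257 and 0.0217, day 7 gave 4.48 and 4.50, day 10 gave 4.03 and 4.05, and day 14 gave 8.32 and 8.85.

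CD61 sorting separated the same pair. Ndufa4l2 was at 232, 170.2 and 207 TMM-normalized CPM in CD61 low and at 615, 737 and 720 in CD61 high cells (3.40-fold, Log2FC 1.77 ± 0.12, adjusted p = 1.38e-06, edgeR). Ndufa4 was at 39.8, 44.2 and 35.9 in CD61 low and 25.1, 28.0 and 27.2 in CD61 high cells (Log2FC -0.58 ± 0.10, adjusted p = 0.00068, edgeR). Neither gene's groups overlapped. The ratio of Ndufa4l2 to Ndufa4 was 5.15 ± 1.12 (SD, n = 3) in CD61 low and 25.8 ± 1.10 in CD61 high cells, a log2 difference of 2.35. The exact two-sided permutation test of this ratio gave p = 0.1, the smallest value that 3 against 3 libraries can give. In TPM, which corrects for transcript length, the ratio ran from 1.84 to 3.11 in CD61 low and from 13.1 to 13.6 in CD61 high cells.

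**Figure D2:**
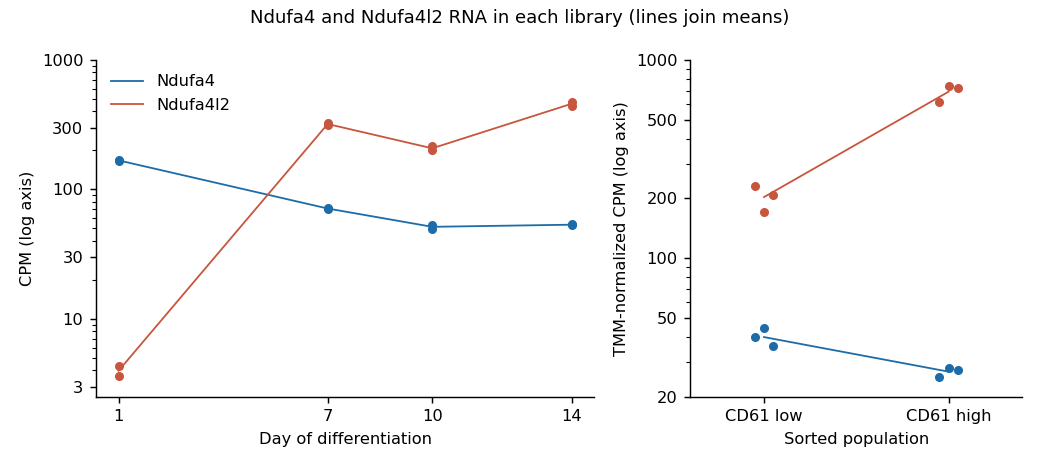
CPM of Ndufa4 and Ndufa4l2 in each differentiation library (left) and TMM-normalized CPM in each sorted library (right), on log axes, with lines through the means. Ndufa4 goes from 167 CPM on average at day 1 to 71.1 CPM at day 7 while Ndufa4l2 goes from 3.97 to 319 CPM, and the pair lies further apart in CD61 high than in CD61 low cells. CPM is not corrected for transcript length.

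Of the complex IV subunits with tissue-restricted forms, 4 restricted forms passed the filter on low values, and each was higher at day 14. For 3 of them, Cox8b, Cox7a1 and Cox4i2, the filter was passed only through the later days, so that these calls do not describe restricted forms in general. Cox8b, the heart and muscle form of the smallest subunit, was at 0.089 and 0.25 CPM at day 1 (11 reads in the pair), 2.55 and 1.65 CPM at day 7, 5.45 and 4.61 CPM at day 10 and 8.10 and 9.56 CPM at day 14 (Log2FC 3.07 ± 0.14, adjusted p = 2.67e-16, limma). In the sort it was at 1.55 ± 0.24 (SD, n = 3) in CD61 low and 4.96 ± 0.51 TMM-normalized CPM in CD61 high cells (Log2FC 1.68 ± 0.21, adjusted p = 0.000101, edgeR). Its partner Cox8a was at 155 CPM at day 1 and 186 CPM at day 14 (Log2FC 0.26, adjusted p = 1.23e-06, limma).

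Cox7a1, the muscle form of subunit 7a, rose from 0.30 ± 0.20 to 2.28 ± 0.06 CPM (SD, n = 2, Log2FC 1.35, adjusted p = 1.11e-08, limma). Cox4i2, the lung and oxygen-responsive form of subunit 4, had 1 read at day 1, and 1.25 and 1.05 CPM at day 14 (Log2FC 1.08, adjusted p = 9.22e-07, limma). Both fell short of the filter in the sort. Cox6a2, the muscle form of subunit 6a, rose from 2.99 ± 0.24 to 6.33 ± 0.50 CPM (Log2FC 0.88, adjusted p = 3.29e-07, limma) with its peak at day 7 (9.29 CPM). In the sort it was not called, with 20.2 ± 0.25 (SD, n = 3) in CD61 low and 15.9 ± 3.72 TMM-normalized CPM in CD61 high cells (Log2FC -0.34, adjusted p = 0.0812, edgeR). It was called lower by library size alone (-0.64, adjusted p = 0.00374) and without CD61 high replicate 2 (-0.53, adjusted p = 0.00769). The partner Cox4i1 was at 0.10 (adjusted p = 0.0122, limma), not called, and it was called higher with TMM (0.14, adjusted p = 0.000938), by edgeR on recovered reads (0.00136) and without day 14 replicate 1 (0.00431). Cox6a1 was at -0.00 (adjusted p = 0.973, limma), and Cox7a2 rose by 0.49 (adjusted p = 1.71e-10, limma). The remaining restricted forms were not tested, and Cox7b2 had 8 to 13 reads per pair of libraries, Cox6b2 0 to 2 and Cox8c 0.

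Cox7a2l, which helps join complexes III and IV into supercomplexes, was at 34.8 and 36.3 CPM at day 1, 57.4 and 60.2 CPM at day 7, 85.5 and 85.1 CPM at day 10 and 57.9 and 65.8 CPM at day 14 (Log2FC 0.78 ± 0.05, adjusted p = 1.30e-12, limma). It thus peaked at day 10. In the sort it was at 67.6 ± 4.93 (SD, n = 3) in CD61 low and 119 ± 7.41 TMM-normalized CPM in CD61 high cells (Log2FC 0.82 ± 0.08, adjusted p = 1.95e-05, edgeR). Of its main transcript, 78.0% lies in a near-identical second copy in the genome, and part of its reads could have been left out or assigned elsewhere. Cox5a, a matrix-side subunit, fell from 70.4 ± 1.56 to 43.4 ± 2.68 CPM (SD, n = 2, Log2FC -0.69, adjusted p = 6.33e-12, limma). Its sort value of -0.39 sat at the threshold (adjusted p = 0.010005, edgeR) and was not called. By library size alone Cox5a was called lower (-0.69, adjusted p = 0.000233, edgeR).

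Complex II, succinate dehydrogenase, is built only from nuclear genes and also serves the citric acid cycle. Its catalytic subunits fell while a membrane anchor rose. Sdha, the flavoprotein that oxidizes succinate, was at 198 and 196 CPM at day 1, 145 and 141 CPM at day 7, 123 and 124 CPM at day 10 and 121 and 118 CPM at day 14 (Log2FC -0.72 ± 0.04, adjusted p = 3.70e-15, limma). Sdhb, the iron-sulfur subunit, fell from 118 and 121 CPM to 83.2 and 90.1 CPM (Log2FC -0.46 ± 0.04, adjusted p = 4.05e-10, limma).

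The anchors behaved otherwise. Sdhc rose from 174 and 175 CPM to 208 and 210.2 CPM (Log2FC 0.26 ± 0.04, adjusted p = 4.81e-07, limma), and Sdhd was at 128 ± 3.59 and 127 ± 5.99 CPM at days 1 and 14 (SD, n = 2, Log2FC -0.02, adjusted p = 0.666). The ratio of Sdha to Sdhc CPM within a library went from 1.14 and 1.12 at day 1 to 0.584 and 0.560 at day 14.

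In the sort the same order held. Sdha was at 74.0, 68.2 and 67.1 TMM-normalized CPM in CD61 low and 46.7, 52.7 and 48.5 in CD61 high cells (Log2FC -0.50 ± 0.08, adjusted p = 0.00044, edgeR). Sdhc was at 133, 128 and 121 in CD61 low and 155, 199 and 176 in CD61 high cells (Log2FC 0.47 ± 0.09, adjusted p = 0.00192, edgeR), a call lost by library size alone (0.17, adjusted p = 0.14) and without CD61 low replicate 2 (adjusted p = 0.0113). Sdhb was at -0.33 (adjusted p = 0.0119) and Sdhd at 0.13 (adjusted p = 0.314), neither called by edgeR with TMM. Sdhb was called lower by DESeq2 (-0.34, adjusted p = 0.00452), by library size alone (-0.63, adjusted p = 0.00017), with TMM after the filter (0.00924), with no filter (0.00819) and without CD61 low replicate 3 (0.00357). The ratio of Sdha to Sdhc was 0.533 to 0.558 in CD61 low and 0.265 to 0.302 in CD61 high cells, without overlap.

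**Figure D3:**
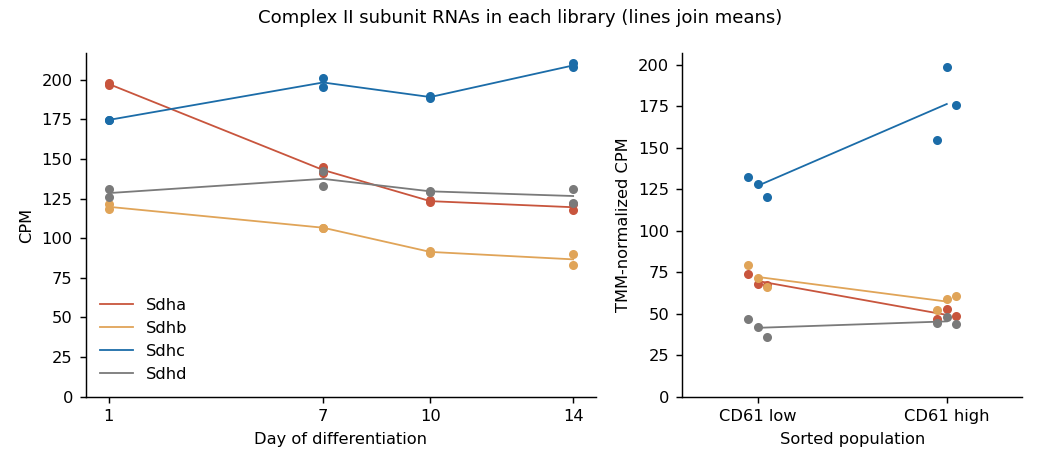
CPM of the 4 complex II genes in each differentiation library (left) and TMM-normalized CPM in each sorted library (right), both axes from 0, with lines through the means. Sdha goes from 197 CPM at day 1 to 120 CPM at day 14 and Sdhc from 175 to 209 CPM, and Sdha is lower and Sdhc higher in CD61 high cells. Levels of different genes are not corrected for length here.

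Most complex I genes moved little, with day 14 values from -0.66 for Ndufa11 to 1.20 for Ndufv3. Ndufv3, the small subunit of the NADH-binding flavoprotein part, was at 35.6 and 37.5 CPM at day 1, 57.3 and 61.4 CPM at day 7, 45.5 and 44.5 CPM at day 10 and 86.7 and 84.1 CPM at day 14 (Log2FC 1.20 ± 0.05, adjusted p = 3.34e-17, limma). Like Ndufa4l2, it dipped at day 10 in both replicates. In CD61 high cells it was at 88.0 ± 5.93 TMM-normalized CPM (SD, n = 3) against 56.2 ± 4.80 in CD61 low cells (Log2FC 0.65 ± 0.09, adjusted p = 0.000152, edgeR).

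Ndufv3 has a short and a long coding transcript. Another, of 645 bases, averaged 0.979 TPM in CD61 low and 0.749 TPM in CD61 high cells. The short one, 493 bases, carried most of the signal, with 206, 192 and 156 TPM in CD61 low and 259, 252 and 316 TPM in CD61 high cells. The long one, 1582 bases, stood at 32.0 to 33.3 TPM in CD61 low and 33.8 to 36.6 TPM in CD61 high cells. No transcript-level test was run.

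The other flavoprotein subunits did not share the rise at day 14. Ndufv1, which binds NADH and FMN, had a Log2FC of 0.01 (adjusted p = 0.767, limma), and Ndufv2 had -0.08 (adjusted p = 0.171). In the sort Ndufv1 was higher by 0.47 (adjusted p = 0.00142, edgeR), a call lost by library size alone (adjusted p = 0.123) and without CD61 high replicate 3 (0.0102). Ndufa6, an accessory subunit, rose from 57.7 ± 1.83 to 91.0 ± 2.76 CPM (SD, n = 2, Log2FC 0.65, adjusted p = 2.60e-12, limma). Ndufa11 fell from 68.7 ± 1.03 to 43.4 ± 4.77 CPM (adjusted p = 1.14e-10, limma). Ndufa12, an accessory subunit, fell from 23.3 to 17.4 CPM (Log2FC -0.40, adjusted p = 2.75e-05, limma) and was lower in CD61 high cells, at 22.5 ± 0.28 against 31.1 ± 2.09 TMM-normalized CPM (SD, n = 3, Log2FC -0.47, adjusted p = 0.00137, edgeR, lost without CD61 low replicate 2 at 0.0101). Ndufb11, a membrane arm subunit, was higher in both (0.25 and 0.49), but its sort call was lost by library size alone and without CD61 low replicate 2, CD61 high replicate 2 or CD61 high replicate 3 (adjusted p 0.0115 to 0.158).

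Complex I assembly factors, which guide the complex together and leave it, had a median Log2FC of -0.24 at day 14, against -0.10 for its subunits, a difference that was not tested. Of 7, 4 fell and 1 rose, where 36.0% and 32.6% of all genes did. Ndufaf4 was at 27.4 and 27.8 CPM at day 1 and at 14.6 CPM in both libraries of day 14 (Log2FC -0.87 ± 0.07, adjusted p = 2.74e-11, limma). It was also lower in CD61 high cells, at 11.3 ± 0.57 against 17.8 ± 0.88 TMM-normalized CPM (SD, n = 3, Log2FC -0.65 ± 0.11, adjusted p = 0.00053, edgeR). Ndufaf5, a methyltransferase-family factor, fell from 13.8 ± 0.72 to 7.78 ± 0.16 CPM (SD, n = 2, Log2FC -0.75, adjusted p = 1.03e-07, limma), and Ndufaf2 from 13.9 ± 0.51 to 8.39 ± 0.41 CPM (Log2FC -0.67, adjusted p = 6.96e-07, limma). Their sort values were -0.53 (adjusted p = 0.0151) and -0.46 (adjusted p = 0.145). Ndufaf3 was the member that rose, by 0.38 (adjusted p = 0.000189, limma).

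In complex III, Uqcrh, the hinge subunit beside cytochrome c1, rose from 77.6 ± 1.96 to 107 ± 2.03 CPM (SD, n = 2, Log2FC 0.46, adjusted p = 2.26e-10, limma). It was higher in CD61 high cells by 0.69 ± 0.15 (adjusted p = 0.00321, edgeR), though not by library size alone (adjusted p = 0.0382) or without CD61 low replicate 2 (0.021) or CD61 high replicate 3 (0.0175). The core subunit Uqcrc1 fell from 244 ± 1.04 to 182 ± 12.1 CPM (Log2FC -0.42, adjusted p = 1.70e-09, limma), and its sort value was 0.10 (adjusted p = 0.369). Uqcrb, which lies at the ubiquinone site, was lower in CD61 high cells, at 34.9 ± 2.55 against 47.7 ± 3.46 TMM-normalized CPM (SD, n = 3, Log2FC -0.45, adjusted p = 0.00172, edgeR, lost without CD61 low replicate 2 at 0.0115).

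Among ATP synthase genes, Atp5b and Atp5a1, subunits of the catalytic head, fell at day 14, while other subunits rose. Atp5b was at 1598 and 1599 CPM at day 1, 1479 and 1497 CPM at day 7, 1170 and 1144 CPM at day 10 and 1082 and 1126 CPM at day 14 (Log2FC -0.53 ± 0.04, adjusted p = 1.48e-12, limma). Atp5a1, the alpha subunit, fell by 0.36 (adjusted p = 1.05e-09, limma). Atp5b was also lower in CD61 high cells (507 ± 21.5 against 640 ± 54.7 TMM-normalized CPM, SD, n = 3, Log2FC -0.34, adjusted p = 0.00532, edgeR). That call was lost without CD61 low replicate 1 or 2 or CD61 high replicate 1 or 3 and with the replicate number as a block (adjusted p 0.0134 to 0.0284), and it held by library size alone. Atp5a1 was at -0.09 in the sort (adjusted p = 0.343, edgeR), not called, but was called lower by library size alone (-0.39, adjusted p = 0.0014). Subunits that rose at day 14 were Atp5l (0.55), Atp5e (0.36), Atp5c1 (0.25) and Atp5d (0.19).

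The 3 genes for the membrane-embedded c subunit encode the same mature protein and differ in their import signals. Atp5g3 fell from 281 ± 12.2 to 227 ± 5.37 CPM (SD, n = 2, Log2FC -0.31, adjusted p = 6.41e-08, limma), and Atp5g1 from 16.8 ± 3.04 to 11.7 ± 0.36 CPM (Log2FC -0.48, adjusted p = 7.07e-05, limma, lost without day 1 replicate 1 at 0.0135). Atp5g2 was below 0.4 CPM in all 8 differentiation libraries and was not tested there. In the sort it was at 24.6, 19.99 and 16.5 TMM-normalized CPM in CD61 low and 32.7, 33.9 and 52.4 in CD61 high cells (Log2FC 0.96 ± 0.19, adjusted p = 0.00211, edgeR). It was not called by library size alone (0.66, adjusted p = 0.0106) or without CD61 low replicate 2 (0.0121). Of the main transcripts of Atp5g1 and Atp5g2, 85.8% and 89.2% lie in second copies, which bears on these levels.

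Nuclear and mitochondrial genes parted at day 10. The median Log2FC against day 1 of the 7 mitochondrial genes with reads was -0.18 at day 7, 0.43 at day 10 and -0.10 at day 14. For the 88 nuclear members tested it was -0.01, -0.16 and -0.11 on the same days. At day 10, 6 of the 7 mitochondrial genes rose and 0 fell (limma, with 0 lower at an unadjusted p below 0.05 and 0 by edgeR on recovered reads), while 15 nuclear genes rose and 42 fell. Over all genes 33.1% rose and 30.3% fell at day 10. The summed CPM of the 7 mitochondrial genes over that of all nuclear members came to 1.11 and 1.09 on day 1, and to 1.06 and 1.07 on day 7. Day 10 gave 1.51 and 1.62, and day 14 gave 1.17 in both libraries. The day 10 libraries stood apart from the rest without overlap. This ratio is taken within a library and does not depend on scaling. The 7 genes include mt-Nd6, whose level in these libraries is uncertain, as set out below.

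**Figure D4:**
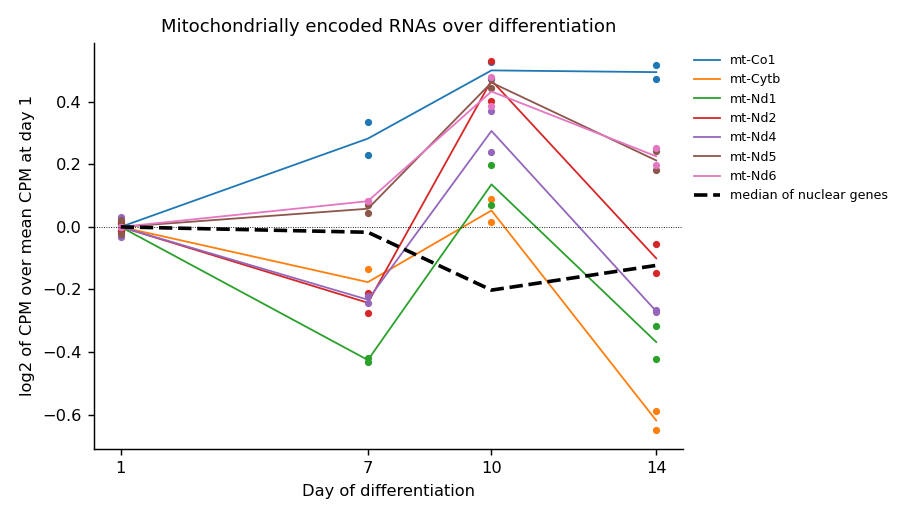
log2 of CPM over the day 1 mean for the 7 mitochondrial genes with reads (points are libraries, lines join means) and the median of the 82 nuclear members above 5 CPM at day 1 (dashed). At day 10, 6 of the 7 mitochondrial RNAs are called higher, mt-Cytb is not (Log2FC 0.05), and the nuclear median is at -0.20, and by day 14 mt-Co1 stays at 0.49 while mt-Cytb is at -0.62.

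The mitochondrial RNAs did not move as a block. mt-Co1 was at 3050 and 3012 CPM at day 1, 3552 and 3821 CPM at day 7, 4210.2 and 4365 CPM at day 10 and 4205 and 4338 CPM at day 14 (Log2FC 0.49 ± 0.05, adjusted p = 6.37e-10, limma). mt-Cytb, the complex III subunit at the far end of the same strand, was at 2588 and 2596 CPM at day 1, 2225 and 2362 CPM at day 7, 2621 and 2755 CPM at day 10 and 1651 and 1724 CPM at day 14 (Log2FC -0.62 ± 0.04, adjusted p = 1.42e-12, limma). Within a library, the ratio of mt-Cytb to mt-Co1, chosen after the values were seen, went from 0.849 and 0.862 at day 1 to 0.393 and 0.397 at day 14. It was 0.454 to 0.497 in CD61 low and 0.326 to 0.372 in CD61 high cells, again without overlap. Of the complex I messages at day 14, mt-Nd5 (0.21) and mt-Nd6 (0.22) rose and mt-Nd1 (-0.37) and mt-Nd4 (-0.27) fell (adjusted p 2.88e-08 to 2.21e-05, limma), and mt-Nd2 at -0.10 did not pass (adjusted p = 0.036). The mt-Nd6 value may not stand for its own message, since its ratio of day 14 CPM to sort CPM was 93.1. Whether those counts used strand is not known.

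All 13 mitochondrial genes had counts in the sort. They took 4.26% to 4.46% of counts in CD61 low and 3.72% to 4.27% in CD61 high libraries, against 0.583% to 0.708% and 0.561% to 0.656% for all 93 nuclear members. The ratio of the 2 sums was 6.02 to 7.55 in CD61 low and 6.02 to 6.62 in CD61 high cells, and the groups overlapped. Of TPM, the 13 mitochondrial genes took 10.5% to 11.8% in CD61 low and 9.28% to 9.95% in CD61 high libraries, without overlap. The nuclear members took 1.70% to 1.98% and 1.65% to 1.87% of TPM, with overlap. The median Log2FC was 0.11 for mitochondrial and 0.10 for nuclear members, a difference of 0.01. Leaving out a library gave differences from -0.06 to 0.11. By library size alone both medians turned negative, to -0.19 and -0.20. mt-Co1 (0.30, adjusted p = 0.00967) and mt-Nd5 (0.29, adjusted p = 0.00687) were called higher by edgeR with TMM, and each call was lost whichever single library was left out (adjusted p 0.0101 to 0.0497), by library size alone and with TMM after the filter. Among the rest, mt-Nd3 had the highest value, 0.66 (adjusted p = 0.0631), and mt-Atp8 the lowest, -0.26 (adjusted p = 0.197).

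The mitochondrial genes mt-Co2, mt-Atp8, mt-Atp6, mt-Co3, mt-Nd3 and mt-Nd4l are listed at 0 in all 8 differentiation libraries. In the sort the same genes had mean TPM of 14161 (mt-Co2), 2397 (mt-Atp8), 19116 (mt-Atp6), 9601 (mt-Co3), 1174 (mt-Nd3) and 4555 (mt-Nd4l). The 6 are neighbours on the mitochondrial genome and are the ones that lie wholly within a stretch copied into the nuclear genome. The copy is at chr1:24650616-24655269 (GRCm39, minus strand) and matches chrM:6390-11042 over 4654 aligned bases at 99.9% identity, with 2 mismatches and 1 gap. Of mt-Nd4 63.6% lies in it, of mt-Co1 31.3%, and of the 5 other mitochondrial genes 0%. The coding sequences of 5 of the 6 genes listed at 0 match the copy at every base, and mt-Nd3 differs at 1. Salmon assigned 17626 to 42135 counts per sorted library to Gm29216, an annotated gene in this copy. How reads that fit both places were treated in the differentiation table was not tested, and these 6 genes are left out of every comparison over days.

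The difference within mt-Nd3 is shown because it is the single place in these 6 genes where a read could tell the 2 copies apart. Written 5′ to 3′ on the mitochondrial plus strand over 41 bases from GRCm39, with the differing base in capitals (T9461C, mitochondrial base first, position from 1 at the start of chrM), the sequences are as follows.
mitochondrial genome: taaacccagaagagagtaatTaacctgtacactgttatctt
chromosome 1 copy: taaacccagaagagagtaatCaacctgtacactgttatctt

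Relative to the sort, most nuclear members with near-identical second copies over at least 50% of the transcript were also low in the differentiation table. The main transcript of each gene was searched against the genome for other places with at least 98% identity over at least 100 bases. The 2 tables were normalized separately and come from different cells, so the ratio of mean day 14 CPM to mean sort CPM is given only to set genes against each other. For 66 nuclear genes with no second copy the median ratio was 1.55, and 1 was below 0.5 (Cox6a2, 0.344). For 10 with copies over part of the transcript (under 50%) the median was 1.33, with Ndufb4 lowest at 0.161. For 11 with copies over at least 50% it was 0.443, and 8 were below 0.5. Low ratios also occurred without copies at this identity, since the 5 mitochondrial genes with none had a median of 0.442, and 3 of them were below 0.5. A stretch of chromosome 2 matches chrM:4441-7699 at 97.4% identity, below the 98% limit, and covers part of mt-Nd2, one of these genes. Among the 11 nuclear genes with copies over at least 50%, the lowest were Atp5g2 at 0.00824, Cox7c at 0.124, Atp5g1 at 0.140, Atp5l at 0.190 and Ndufab1 at 0.211. For these genes the CPM level at each day is uncertain, while the comparison between days uses the same counting throughout. mt-Nd6 stood at the other extreme, with a ratio of 93.1. It had 337 to 471 CPM in the differentiation libraries and 3.5 to 5.4 TMM-normalized CPM in the sort. mt-Nd6 is encoded on the opposite strand from its neighbours, and whether the counts of the differentiation table used strand is not given in the sources used here.

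**Figure D5:**
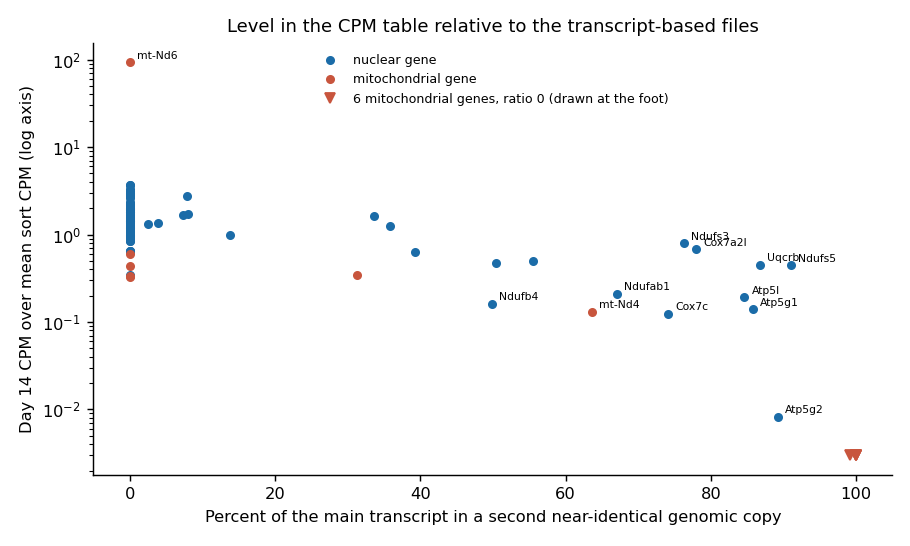
Ratio of mean day 14 CPM to mean sort CPM (log axis) against the percent of the main transcript found in a second near-identical genomic place, for genes with at least 60 counts in the sort. Nuclear genes with no copy lie between 0.344 (Cox6a2) and 3.70, those with at least 50% in copies lie at or below 0.789, and the 6 mitochondrial genes at ratio 0 are drawn at the foot.

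Other genes of the pathway were counted from lists chosen by function. Sort values are under TMM, and by library size alone those of Higd1a, Coa3 and Coq8a were 0.43, 0.48 and 0.39. Of 38 assembly factors tested at day 14, 8 rose and 10 fell, both below the shares of all genes (32.6% and 36.0%). Higd1a, a hypoxia-inducible factor that binds complex IV, rose from 28.3 to 164 CPM (Log2FC 2.49) and was higher in CD61 high cells (0.73). Coa3, a complex IV assembly factor, rose by 0.89 and was higher in CD61 high cells by 0.78. Ttc19, a complex III factor, fell by 1.02 and was lower in CD61 high cells (-0.86). In the sort 4 of 39 tested were higher and 1 lower, below the 19.4% and 16.0% of all genes.

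Of 15 electron carrier and ubiquinone genes, 1 rose and 5 fell at day 14, and 1 was higher and 2 lower in the sort. The counts of lower genes were near the shares of all genes (36.0% and 16.0%), and those of higher genes lay below them (32.6% and 19.4%). Coq8a, a ubiquinone-synthesis kinase-like protein, rose by 1.23 and was higher in CD61 high cells by 0.69. Coq2 and Pdss1, which build the ubiquinone tail and join it to the ring, fell by 0.93 and 0.53 at day 14 and were lower in CD61 high cells (-0.90 and -0.88).

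Of 18 tested genes for expression and upkeep of the mitochondrial genome, 1 rose and 6 fell at day 14, and in the sort 5 were lower and 0 higher (edgeR, with 3 higher at an unadjusted p below 0.05 and 0 called higher by DESeq2). The day 14 count of lower genes was near the share of all genes (36.0%), and 16.0% of all genes were lower in the sort. The counts of higher genes lay below the shares of all genes (32.6% and 19.4%). Polrmt, the mitochondrial RNA polymerase, was lower in both (-0.55 and -0.52), as was Top1mt, its topoisomerase (-0.58 and -0.83). Tfam, which packages and transcribes the genome, was at 39.5 and 41.5 CPM on average at days 1 and 14 (Log2FC 0.07, adjusted p = 0.296, limma) and lower in CD61 high cells (14.6 against 23.3 TMM-normalized CPM, Log2FC -0.67, edgeR).

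Of 10 nuclear regulators tested, 7 rose and 1 fell at day 14, against 32.6% and 36.0% of all genes. In the sort 3 of 10 were higher, against 19.4% of all genes, a difference that was not tested. Epas1, which encodes HIF-2alpha, rose from 5.10 to 125 CPM (Log2FC 4.37) and was higher in CD61 high cells (1.76). Esrra, an estrogen-related receptor that drives oxidative genes, rose by 0.23 and was higher by 0.55, and Yy1 by 0.41 and 0.40. By library size alone the sort values were 0.25 for Esrra and 0.10 for Yy1. Pprc1, a PGC-1-related coactivator, fell by 0.52 at day 14. Ppargc1a, the coactivator best known for raising mitochondrial content, stayed below 0.2 CPM in every group mean.

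Promoter windows of the nuclear members were searched for the HIF core and for 1 fixed form each of the NRF1, YY1 and GABPA motifs. RefSeq windows on GRCm38.p6, from 250 bases before to 50 bases after a start site, matched 76 of the 93 nuclear members by symbol (82 windows), Ndufa4l2 not among them. Motifs were searched on both strands as exact letters. The HIF core occurred as ACGTG in 26.8% of member windows and 19.6% of all 32851 windows, and as GCGTG in 56.1% and 32.4%. Either occurred in 67.1% and 43.8%. The NRF1 form was in 8.54% of member windows and 0.971% of all, the YY1 form in 8.54% and 0.852%, and the GABPA form in 6.10% and 3.89%. These are descriptions of letters in a window and not of binding, and base composition was not matched.

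The windows of 4 members that changed in both experiments are shown, 2 that fell (Ndufa4, Sdha) and 2 that rose (Cox8b, Ndufv3), each 5′ to 3′ on the strand of the gene with the HIF cores in capitals. They lie on GRCm38.p6 at chr6:11907401-11907700 minus (Ndufa4), chr13:74350191-74350490 minus (Sdha), chr7:140900397-140900696 minus (Cox8b) and chr17:31519865-31520164 plus (Ndufv3). CACGT and CACGC are the cores read on the other strand.
Ndufa4: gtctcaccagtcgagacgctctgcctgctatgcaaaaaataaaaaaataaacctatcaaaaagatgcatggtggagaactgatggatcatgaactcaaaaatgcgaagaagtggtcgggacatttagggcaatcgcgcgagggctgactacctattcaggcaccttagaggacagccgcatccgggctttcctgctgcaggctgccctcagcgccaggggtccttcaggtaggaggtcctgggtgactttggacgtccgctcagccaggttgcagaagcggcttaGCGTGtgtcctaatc
Sdha: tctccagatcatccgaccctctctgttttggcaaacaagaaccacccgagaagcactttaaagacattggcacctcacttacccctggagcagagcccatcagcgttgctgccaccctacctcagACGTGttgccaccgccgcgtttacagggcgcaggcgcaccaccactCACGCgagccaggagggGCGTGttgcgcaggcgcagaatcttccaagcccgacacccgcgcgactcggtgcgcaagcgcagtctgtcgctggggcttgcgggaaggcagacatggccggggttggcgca
Cox8b: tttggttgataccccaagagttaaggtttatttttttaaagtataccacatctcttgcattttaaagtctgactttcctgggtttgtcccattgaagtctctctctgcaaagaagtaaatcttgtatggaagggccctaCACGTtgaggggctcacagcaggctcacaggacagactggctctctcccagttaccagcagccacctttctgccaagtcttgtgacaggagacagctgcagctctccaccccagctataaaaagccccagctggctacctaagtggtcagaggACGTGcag
Ndufv3: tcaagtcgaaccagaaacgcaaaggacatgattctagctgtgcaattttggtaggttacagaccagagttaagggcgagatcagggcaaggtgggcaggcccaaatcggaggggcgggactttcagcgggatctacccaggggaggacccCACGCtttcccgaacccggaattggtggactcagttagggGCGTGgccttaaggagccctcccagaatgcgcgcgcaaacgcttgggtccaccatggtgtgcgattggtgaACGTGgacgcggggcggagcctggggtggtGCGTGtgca
The windows hold 1 HIF core in Ndufa4, 3 in Sdha, 2 in Cox8b and 4 in Ndufv3, and a role of HIF was not tested.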

How the data were processed

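RNA of 14 libraries, polyA RNA per the labels, was sequenced, 8 in the differentiation experiment and 6 in the sort. For the differentiation libraries reads were aligned by the authors (STAR), assigned to genes (HTSeq) and deposited as CPM values. All values were whole multiples of 1 read (tolerance 0.01, 100% whole). For the sorted libraries the authors ran Salmon against GRCm39 release 104 and deposited estimated counts and TPM per transcript. Tool versions are not given in the sources used here.

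Transcripts were summed to 35886 genes with GENCODE M39. Each day was compared with day 1 by limma 3.58.1 on log2(CPM + 1), with all 8 libraries in the fit and a CPM above 1 in at least 1 library. Sorted groups were compared by the edgeR 4.0.16 quasi-likelihood test on rounded estimated counts with TMM factors and at least 5 normalized counts in every library. P-values were adjusted by Benjamini-Hochberg over all genes tested, and an adjusted p below 0.01 was called. Errors are SD, or SE for Log2FC. The methods describe the sorted replicates as independent groups of cells, without saying whether these were separate cultures, so that p-values measure the spread between these libraries. Floors cover counting error only, while SD and SE include the spread between libraries.

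The genes named were the complex II genes, paralog pairs, mitochondrial genes, the 8 highest and 8 lowest called members of at least 5 CPM without overlap between groups, and the extremes of each complex by TPM. Others (Ndufv1, Ndufv2, Ndufb11, Ndufaf3, Uqcrc1, Atp5a1, Atp5e, Atp5c1, Atp5d and the genes of other lists) were chosen after their values were seen. The members and lists were chosen with earlier results of these data known. Second copies were found with BLAST 2.17.0. Promoter windows are from RefSeq on GRCm38.p6. Test scripts were tested on simulated data. Alternatives were pseudocount, filters, scaling, DESeq2 1.42.0 for the sort, edgeR on the recovered reads, a replicate block and leaving out each library.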

Additional observations from a re-analysis of the deposited data

How the results depend on the processing

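Depth limits the low complex IV forms, since Cox4i2 had 1 read and Cox8b 11 reads in the day 1 pair. A floor of 3 reads is 0.0456 CPM there. The difference in Log2FC between Ndufa4l2 and Ndufa4 was 7.24, 7.08 and 8.16 at days 7, 10 and 14 and 2.34 in the sort. A pseudocount of 0.1 gave 7.53, 7.38 and 8.47 for the days, and edgeR on recovered reads gave 7.56, 7.40 and 8.49. Leaving out a library gave 7.14 to 7.33, 6.98 to 7.17 and 8.07 to 8.26. With edgeR on recovered reads 28 members were higher and 37 lower at day 14, and 63 of the 67 calls remained.

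Members lower at day 7 numbered 16 with no filter. Leaving out a library gave 15 to 23 higher and 15 to 28 lower at day 7, and 5 to 15 higher and 3 to 10 lower in the sort. The sort gave 4 higher and 28 lower by library size alone, and 25 and 11 at an adjusted p below 0.05. The difference between mitochondrial and nuclear medians was -0.17, 0.59 and 0.01 at days 7, 10 and 14 and 0.01 in the sort. Leaving out a library gave -0.18 to -0.15, 0.52 to 0.66 and -0.05 to 0.05 for the days. For the sort this gave -0.06 to 0.11, so the sign turned there and at day 14.

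Of 64 results for single genes, 15 lost their call under some setting and 7 gained one. The gains were Cox4i1 and mt-Nd2 at day 14, and Sdhb, Cox6b1, Cox6a2, Atp5g1 and, at an adjusted p below 0.05, Cox6a1 in the sort. The complex IV median at day 14 was 0.18, and 0.061 over genes above 1 CPM at day 1, chosen after seeing the data. Values of single genes that changed sign follow. At day 14 TMM gave 0.0138 for Sdhd and 0.0339 for Cox6a1, and edgeR on recovered reads gave 0.0129 and 0.0338. Leaving out a library gave -0.0692 to 0.0266 for Sdhd and -0.0371 to 0.0343 for Cox6a1. In the sort, library size alone gave -0.17 for Sdhd, -0.27 for Atp5g3, -0.0896 for Cox4i1, -0.0521 for Cox7a2, -0.0034 for mt-Co1 and -0.0108 for mt-Nd5, where TMM gave 0.13, 0.04, 0.21, 0.25, 0.30 and 0.29 in the same order. Leaving out a library gave -0.1347 to 0.0257 for Atp5g1 and -0.0604 to 0.1139 for Atp5g3. Except for the shift of all genes under library size alone, the cause was not tested.

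Same-numbered replicates deviated together by correlations of 0.006 to 0.087 in the differentiation experiment and -0.32, 0.22 and -0.06 in the sort. No source says that the numbers match the groups of cells sorted, so whether they pair the libraries is not known. With a replicate block, 23 members were higher and 27 lower on day 7. Day 10 then gave 22 higher and 42 lower, day 14 gave 26 and 42, and the sort gave 10 and 5.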
